A study of Mus musculus with 47 samples.

Results

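Expression of Notch signalling genes was followed over a day in stem cells of skeletal muscle, taken from mice that ate a high-fat or a control diet. The genes are the receptors Notch1, Notch2 and Notch3, the ligand Jag1, the nuclear factor Rbpj, the target genes Hey1, Heyl and Hes1, and Megf10. They were chosen by symbol, as the probe sets (the groups of short probes that report a transcript) annotated to these 9 genes in the deposited table. All 9 genes were present, with 15 of its 45141 probe sets. Each gene was read from its brightest probe set over the 47 arrays, and all 9 lay above the filter on low values that left 10258 of 17097 genes for testing. On the log2 scale of the arrays the means of these probe sets lay between 8.05 for Hes1 and 11.39 for Notch3, and since each probe set has its own response, levels are compared within a gene only.

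The cells were satellite cells, which sit between muscle fibre and basal lamina and rebuild muscle, from female wild-type C57B6/J mice that were 15 weeks old. Mice had eaten freely of a high-fat diet (23 mice) or its matched control diet (24 mice) for 7 weeks, and RNA of each mouse was hybridised to its own array. Mice were collected every 4 h from ZT0 to ZT20 (zeitgeber time in hours), where ZT0 is by convention lights on, with 4 mice per diet and time and 3 at high-fat ZT16. A single day served each time and held both diets, so a difference between diets at a time lies within a day, while time of day and collection day cannot be told apart within a diet. How the cells were isolated is not given in the sources used here.

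The labelled cell type was checked against marker genes. All 11 satellite cell markers measured lay above the filter, and their mean level per mouse lay between 10.00 and 10.42 in high-fat mice, against 9.99 and 10.19 in control mice. Of 11 endothelial markers 6 lay under the filter, among them Kdr and Vwf, while Tek had a mean of 9.19, and of 8 immune markers 6 did. Of 7 fibro-adipogenic markers 5 lay above it, with means of 11.38 for Dpt and 11.31 for Col3a1, and Pdgfra and Lum lay under it. All 4 Schwann cell markers measured lay above it, with 9.22 for Mbp, as did 8 of 10 myofibre markers, with means of up to 6.74. One control mouse, ZT20 replicate 2, stood apart, with an endothelial marker mean of 7.61, against at most 6.23 in high-fat mice and 6.28 in the other control mice, and with the highest immune and fibro-adipogenic means. Without this mouse the number of genes of the set that passed was unchanged in 11 of the 13 comparisons below, and both exceptions are given where they occur. Markers of pericytes and smooth muscle were measured in 6 genes, all above the filter. Their mean level per mouse lay between 7.74 and 8.95 in high-fat mice, and between 7.99 and 9.23 in control mice. Single genes of this list had means of 10.93 for Acta2, 10.64 for Myh11 and 10.07 for Rgs5, down to 5.81 for Cnn1. In such bulk samples, fewer cells of a type and less RNA per cell cannot be told apart.

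Notch receptors are membrane proteins that a ligand on a neighbouring cell activates. Ligand binding leads to cleavage, the intracellular part moves to the nucleus, and there it joins Rbpj and Mastermind proteins to switch on genes of the Hes and Hey families, which encode transcriptional repressors. In mouse muscle this pathway keeps satellite cells quiescent and undifferentiated, and loss of Rbpj or of Hey1 together with Heyl depletes the stem cell pool. Megf10 is a membrane protein with epidermal growth factor-like repeats that promotes myoblast proliferation and acts on Notch signalling, and mutations in its human counterpart cause an early-onset myopathy.

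Upstream sequence is shown for 3 genes whose daily course or diet difference is described below, as the 250 bases before the start site in RefSeq (GRCm38.p6), 5′ to 3′ on the strand of the gene. Capitals mark matches on either strand to TGGGAA, the core of the sequence that Rbpj binds, to CACGTG, an E box, and to CACGCG, a sequence that Hes and Hey proteins can bind, and no match overlaps another. The Jag1 window is chr2:137116521-137116770 (minus strand), the Notch3 window chr17:32166891-32167140 (minus strand) and the Rbpj window chr5:53590096-53590345 (plus strand).
Jag1: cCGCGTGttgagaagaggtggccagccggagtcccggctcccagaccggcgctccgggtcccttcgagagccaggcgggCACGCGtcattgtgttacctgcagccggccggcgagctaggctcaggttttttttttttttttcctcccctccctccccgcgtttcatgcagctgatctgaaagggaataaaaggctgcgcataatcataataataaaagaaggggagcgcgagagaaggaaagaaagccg
Notch3: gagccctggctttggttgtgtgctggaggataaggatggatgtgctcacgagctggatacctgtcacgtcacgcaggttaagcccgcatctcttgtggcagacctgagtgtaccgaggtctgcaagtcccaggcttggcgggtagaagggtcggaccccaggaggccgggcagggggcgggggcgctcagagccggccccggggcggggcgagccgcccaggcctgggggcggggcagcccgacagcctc
Rbpj: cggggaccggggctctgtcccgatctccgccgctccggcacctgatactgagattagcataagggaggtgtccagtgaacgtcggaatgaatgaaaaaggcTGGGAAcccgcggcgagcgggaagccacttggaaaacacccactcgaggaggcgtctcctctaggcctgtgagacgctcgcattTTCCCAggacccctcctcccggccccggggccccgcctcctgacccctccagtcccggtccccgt
The Jag1 window held 2 matches to CACGCG, starting 249 and 171 bases before the start site. The Rbpj window, the upstream one of 2 overlapping windows of start sites that the table gives, held 2 matches to TGGGAA, starting 149 and 65 bases before its start site. The other Rbpj window (chr5:53590236-53590485) held 1 match, 205 bases before its own start site, and the Notch3 window held none of the 3 motifs. Windows of Notch1 and Notch2 are not printed. That of Notch1 held none of the 3 motifs, and that of Notch2 held 1 match to CACGCG, starting 42 bases before the start site. Both Rbpj windows lie inside the annotated span of the gene, which starts at chr5:53555779. Sequence before that position was not examined. Of all 32851 mouse windows of this length, 21.6% held TGGGAA, 6.02% CACGTG and 7.62% CACGCG. GC content was 57.2% for Jag1, 68.8% for Notch3 and 65.2% for Rbpj, against a median of 52.4% over all windows.

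**Figure D1:**
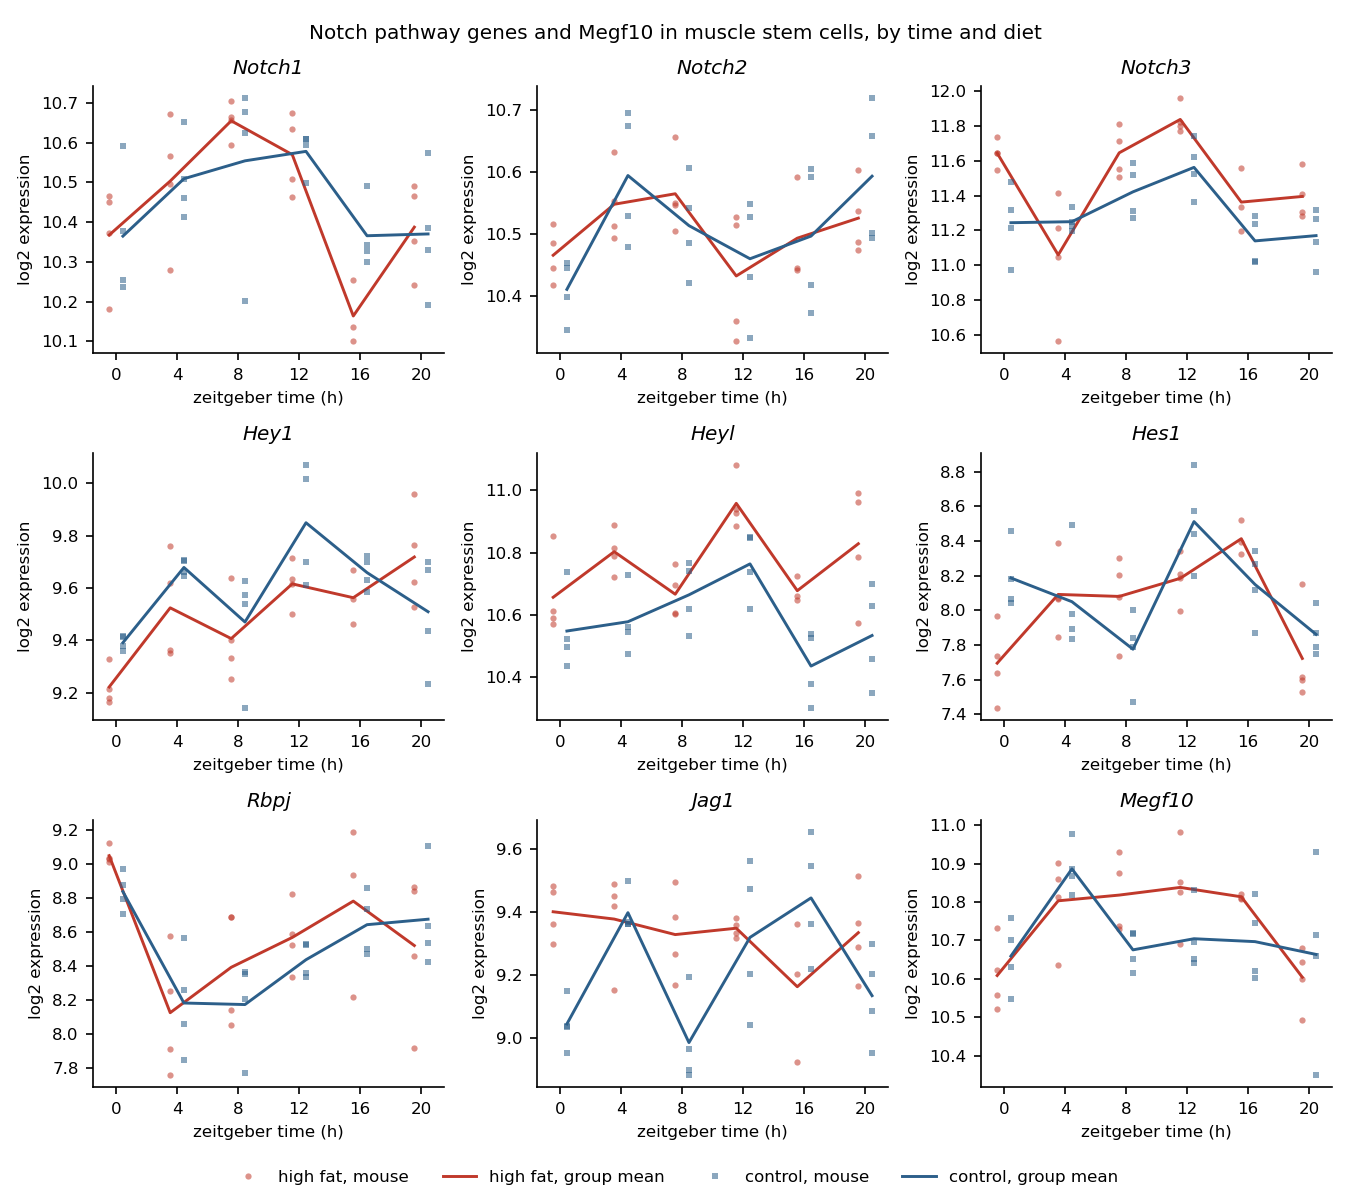
Log2 expression of the 9 genes against zeitgeber time in hours, with 1 point per mouse (circles, high-fat diet; squares, control diet) and lines through the group means of 4 mice (3 at high-fat ZT16). Heyl lies higher on the high-fat diet at 6 of 6 times, Notch3 at 5 of 6, and the lines of every gene but Heyl cross between times.

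The first question was whether the diets differed on average over the day. Notch3 and Heyl were higher on the high-fat diet, and none of the 9 genes passed as lower. Notch3 was higher by 0.19 ± 0.05 (log2 difference of high fat minus control ± SE, adjusted p = 0.00696), a ratio of 1.14. Heyl was higher by 0.18 ± 0.03 (adjusted p = 0.000658), a ratio of 1.13. The test was limma's moderated test, two-sided and adjusted over all 10258 genes, with a threshold of 0.05. Over all genes 11.5% passed for this average, 4.7% with higher and 6.8% with lower expression on high fat, a background at which about 1 gene in 9 passes. The median difference was 0.03 over the 9 genes and -0.01 over all genes.

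Among the receptors, Notch3 was the one that passed between diets. It is expressed in satellite cells and in vascular smooth muscle, and in mice its loss has been linked to more satellite cells after repeated injury. At ZT0 its level was 11.65, 11.64, 11.74 and 11.55 in high-fat mice, against 11.47, 10.97, 11.22 and 11.32 in control mice. At ZT4 it was 10.57, 11.41, 11.21 and 11.05 in high-fat mice, against 11.23, 11.20, 11.25 and 11.33 in control mice. At ZT8 it was 11.55, 11.71, 11.50 and 11.81 in high-fat mice, against 11.59, 11.52, 11.27 and 11.31 in control mice. All high-fat mice lay above all control mice at ZT0, the groups overlapped at ZT4 and ZT8, and 1 high-fat mouse at ZT4 had the lowest level of all mice. At ZT12 the level was 11.96, 11.80, 11.77 and 11.82 in high-fat mice, against 11.36, 11.52, 11.74 and 11.62 in control mice. At ZT16 it was 11.20, 11.33 and 11.56 in high-fat mice, against 11.28, 11.24, 11.02 and 11.03 in control mice. At ZT20 it was 11.58, 11.28, 11.31 and 11.41 in high-fat mice, against 11.27, 11.13, 11.32 and 10.96 in control mice. At ZT12 the groups did not overlap and high fat was higher, and at ZT16 and ZT20 they overlapped with higher means on high fat. The highest group mean was that of high-fat ZT12 (11.84 ± 0.08, SD, n = 4) and the lowest that of high-fat ZT4 (11.06 ± 0.36, SD, n = 4). Between neighbours in the order of the 12 group means, only 1 step was wider than the larger of the pair's SDs.

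Notch1 and Notch2, the other receptors measured here above the filter, differed on average by -0.02 ± 0.04 (95% confidence interval -0.09 to 0.06) and -0.01 ± 0.03 (-0.06 to 0.05). Over all mice Notch1 ranged from 10.10 to 10.71 with a median of 10.47 on the high-fat diet, and from 10.19 to 10.71 with a median of 10.48 on the control diet. At ZT16 Notch1 was 10.10, 10.14 and 10.25 in high-fat mice, against 10.33, 10.49, 10.30 and 10.34 in control mice. Every high-fat mouse lay below every control mouse at that time, and the difference of -0.20 ± 0.10 did not pass (adjusted p = 0.171). Notch2 had the narrowest range of group means, 0.18, and passed none of the 13 tests. Its level ranged from 10.33 to 10.66 on the high-fat diet and from 10.33 to 10.72 on the control diet.

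Heyl, a Hairy and enhancer-of-split related repressor and Notch target, had a higher mean on the high-fat diet at 6 of 6 times. At ZT0 its level was 10.57, 10.59, 10.61 and 10.85 in high-fat mice, against 10.44, 10.74, 10.50 and 10.52 in control mice. At ZT4 it was 10.81, 10.72, 10.79 and 10.89 in high-fat mice, against 10.48, 10.73, 10.55 and 10.56 in control mice. At ZT8 it was 10.70, 10.60, 10.60 and 10.76 in high-fat mice, against 10.77, 10.62, 10.74 and 10.53 in control mice. The groups overlapped at these 3 times, narrowly at ZT4, and the means at ZT8 were almost equal. At ZT12 the level was 10.94, 10.89, 11.08 and 10.93 in high-fat mice, against 10.62, 10.74, 10.85 and 10.85 in control mice. At ZT16 it was 10.73, 10.65 and 10.66 in high-fat mice, against 10.30, 10.54, 10.38 and 10.53 in control mice. At ZT20 it was 10.96, 10.79, 10.99 and 10.57 in high-fat mice, against 10.70, 10.63, 10.46 and 10.35 in control mice. All high-fat mice lay above all control mice at ZT12 and at ZT16, and the groups overlapped at ZT20. The difference was largest at ZT20, at 0.29 ± 0.08, and smallest at ZT8, at 0.00 ± 0.08, and none of the single times passed (adjusted p at ZT16 = 0.0644, at ZT20 = 0.0764).

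The other target genes showed no average difference that passed. Hey1, the partner repressor of Heyl in satellite cells, differed by -0.08 ± 0.04 (adjusted p = 0.226), with lower means on high fat at 5 of 6 times. Its level at ZT0 was 9.18, 9.21, 9.33 and 9.16 in high-fat mice, against 9.36, 9.42, 9.41 and 9.38 in control mice. At ZT20 it was 9.77, 9.62, 9.96 and 9.53 in high-fat mice, against 9.67, 9.70, 9.44 and 9.23 in control mice. All high-fat mice lay below all control mice at ZT0, and at ZT20 the groups overlapped with a higher mean on high fat. Hes1, a repressor whose expression oscillates in proliferating myoblasts, differed by -0.06 ± 0.06 (adjusted p = 0.613).

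Jag1, the ligand, differed on average by 0.10 ± 0.04 (adjusted p = 0.111). It passed as higher on the high-fat diet without the ZT16 mice (0.18 ± 0.04, adjusted p = 0.0129) and with the mean of its probe sets (0.19 ± 0.06, adjusted p = 0.0222). Rbpj, the DNA-binding factor of the pathway, differed by 0.08 ± 0.08 (adjusted p = 0.57). Megf10 differed by 0.03 ± 0.03 (adjusted p = 0.550). Its level ranged from 10.49 to 10.98 with a median of 10.74 on the high-fat diet, and from 10.35 to 10.98 with a median of 10.71 on the control diet, so the diets overlapped almost fully.

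**Figure D2:**
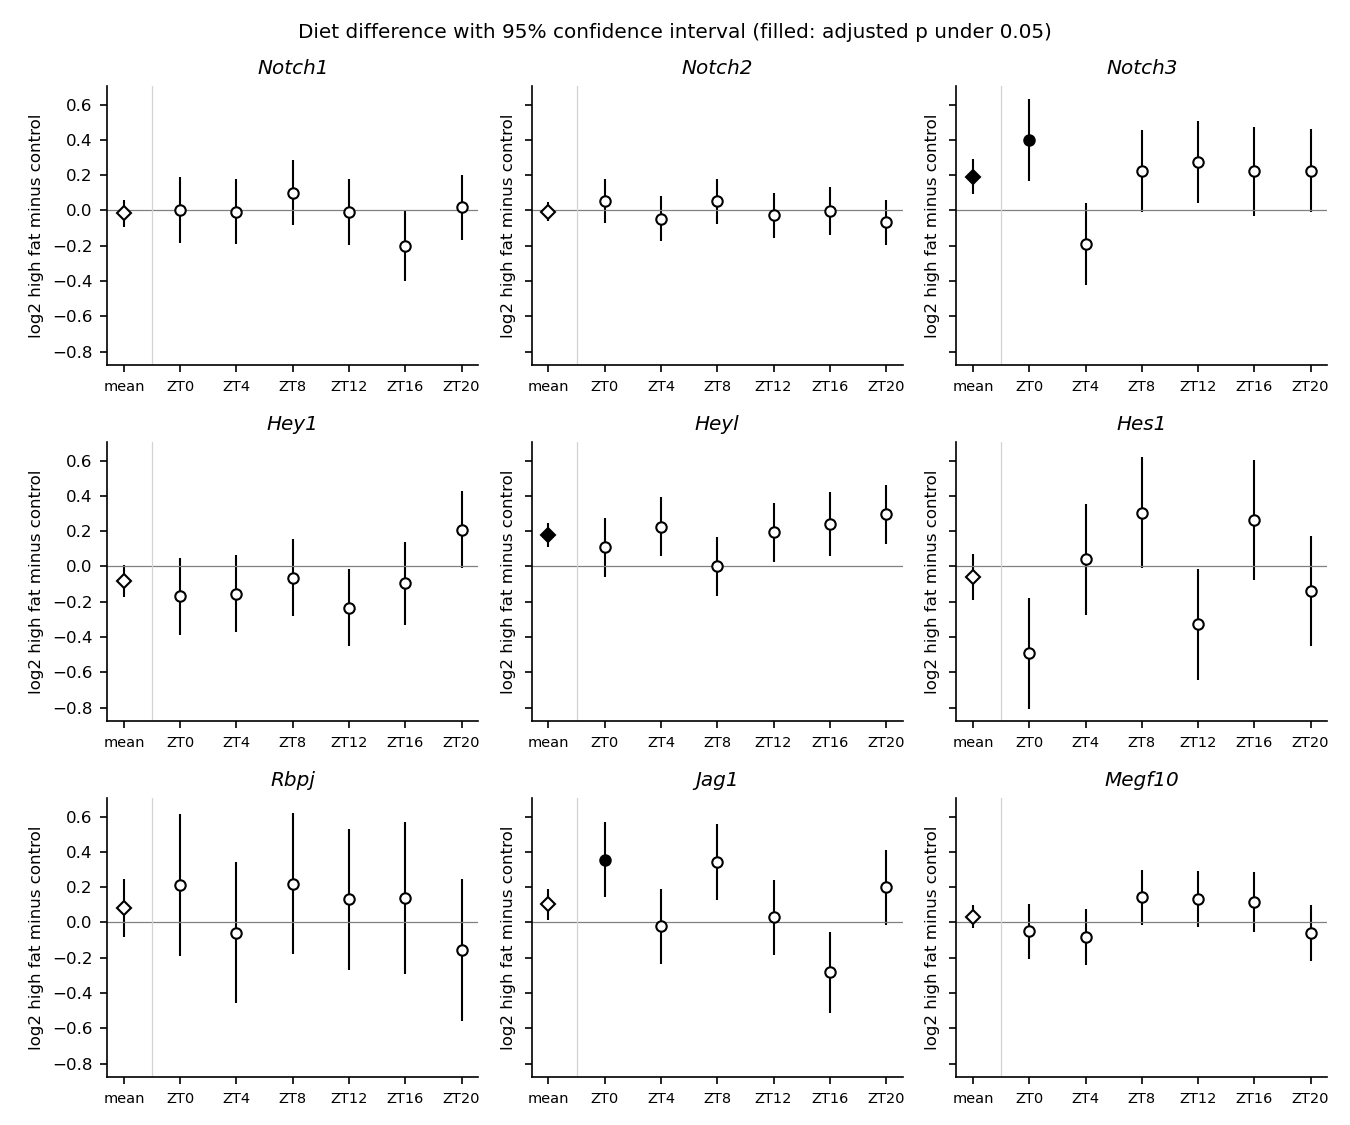
Difference between diets (log2 high fat minus control) for each of the 9 genes, as the mean over 6 times (diamond) and at each zeitgeber time (circles), with 95% confidence intervals from limma. Filled symbols have an adjusted p under 0.05, namely the means of Notch3 and Heyl and the ZT0 differences of Notch3 and Jag1.

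Compared time by time, the diets differed for genes of this set at ZT0 alone of the 6 times tested, although differences between times need the interaction test given below. At ZT0 Notch3 was higher on the high-fat diet by 0.40 ± 0.12 (adjusted p = 0.0436), a ratio of 1.32. Jag1 was higher by 0.36 ± 0.11 (adjusted p = 0.0472), a ratio of 1.28. Over all genes 3.56% passed at ZT0, and 1.33% passed as higher. Hes1 at -0.49 ± 0.16 missed the threshold (adjusted p = 0.0651). The 2 calls lay close to it. Leaving out single mice ended the Jag1 call in 27 of 47 cases, among them the control ZT20 mouse that stood apart (adjusted p = 0.0501), and the Notch3 call in 7, each of the 4 high-fat ZT0 mice and control ZT0 replicates 2, 3 and 4. The lost calls moved the adjusted p to at most 0.138 for Jag1 and 0.163 for Notch3.

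The diets did not overlap at ZT0 for 5 of the 9 genes. Notch3, Rbpj and Jag1 were higher in every high-fat mouse than in every control mouse, and Hey1 and Hes1 were lower. Such separation was seen for 9.99% of all genes at ZT0. Rbpj at ZT0 was 9.02, 9.03, 9.04 and 9.12 in high-fat mice, against 8.80, 8.97, 8.71 and 8.88 in control mice. The 4 high-fat mice spanned a narrower range than the control mice just below them, and the difference of 0.21 ± 0.20 did not pass (adjusted p = 0.623).

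At the other times no gene of the set passed, against 0.312% of all genes at ZT4, 1.78% at ZT8, 0.858% at ZT12, 13.3% at ZT16 and 0.819% at ZT20. The counts at an unadjusted p under 0.05 were 1 of 9 genes at ZT4 (12.3% of all genes), 1 at ZT8 (17.3%), 4 at ZT12 (14.4%), 3 at ZT16 (28.5%) and 1 at ZT20 (13.6%). The diets did not overlap for 0 genes at ZT4 (5.38% of all genes), 1 at ZT8 (9.83%), 2 at ZT12 (7.47%), 2 at ZT16 (29.1%) and 0 at ZT20 (6.33%). The gene at ZT8 was Megf10, with 10.73, 10.74, 10.88 and 10.93 in high-fat mice, against 10.65, 10.72, 10.61 and 10.72 in control mice. At ZT12 these were Notch3 and Heyl, and at ZT16 Heyl, higher on high fat, and Notch1, lower.

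Whether the difference between diets changed with time was tested by an interaction of diet and time, which 12.4% of all genes passed. Jag1 (adjusted p = 0.0200) and Hes1 (adjusted p = 0.0402) passed it, 2 of the 9 genes. The change of sign between times is in the values of both, as it is for every other gene of the set but Heyl.

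For Jag1 the mean was higher on the high-fat diet at ZT0, ZT8, ZT12 and ZT20 and lower at ZT4 and ZT16. At ZT0 its level was 9.30, 9.36, 9.48 and 9.46 in high-fat mice, against 8.95, 9.04, 9.04 and 9.15 in control mice. At ZT4 it was 9.15, 9.42, 9.45 and 9.49 in high-fat mice, against 9.36, 9.50, 9.36 and 9.37 in control mice. At ZT8 it was 9.27, 9.50, 9.17 and 9.38 in high-fat mice, against 9.20, 8.88, 8.97 and 8.90 in control mice. All high-fat mice lay above all control mice at ZT0, the groups overlapped at ZT4, and at ZT8 a single control mouse reached into the high-fat range. At ZT12 the level was 9.33, 9.36, 9.38 and 9.32 in high-fat mice, against 9.04, 9.47, 9.56 and 9.20 in control mice. At ZT16 it was 8.93, 9.36 and 9.20 in high-fat mice, against 9.55, 9.65, 9.22 and 9.36 in control mice. At ZT20 it was 9.37, 9.29, 9.52 and 9.17 in high-fat mice, against 9.20, 9.09, 8.95 and 9.30 in control mice. The groups overlapped at these 3 times, and at ZT16 the mean was lower on high fat. The differences were 0.34 ± 0.11 at ZT8 (adjusted p = 0.0742) and -0.28 ± 0.11 at ZT16 (adjusted p = 0.0917). Without high-fat ZT16 replicate 1, the lowest high-fat mouse, the interaction no longer passed (adjusted p = 0.0667), nor did it without all ZT16 mice (adjusted p = 0.181). With the mean of its probe sets in place of the brightest one, Jag1 did not pass either (adjusted p = 0.334), and Notch3 passed (adjusted p = 0.0461).

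For Hes1 the mean was lower on the high-fat diet at ZT0, ZT12 and ZT20 and higher at ZT4, ZT8 and ZT16. At ZT0 its level was 7.74, 7.64, 7.97 and 7.44 in high-fat mice, against 8.46, 8.18, 8.06 and 8.04 in control mice. At ZT4 it was 8.39, 8.07, 8.06 and 7.85 in high-fat mice, against 7.98, 7.83, 8.49 and 7.89 in control mice. At ZT8 it was 8.08, 7.73, 8.21 and 8.30 in high-fat mice, against 7.47, 7.79, 7.84 and 8.00 in control mice. All high-fat mice lay below all control mice at ZT0, and the groups overlapped at ZT4 and ZT8. At ZT12 the level was 8.21, 8.19, 8.34 and 8.00 in high-fat mice, against 8.57, 8.84, 8.20 and 8.44 in control mice. At ZT16 it was 8.32, 8.52 and 8.39 in high-fat mice, against 7.87, 8.27, 8.34 and 8.12 in control mice. At ZT20 it was 7.53, 8.15, 7.60 and 7.61 in high-fat mice, against 7.87, 7.75, 8.04 and 7.79 in control mice. The groups overlapped at each of these times, with a lower mean on high fat at ZT12 and ZT20 and a higher mean at ZT16. In high-fat mice the group mean peaked at ZT16 (8.41 ± 0.10, SD, n = 3), and in control mice at ZT12 (8.51 ± 0.27, SD, n = 4). Leaving out single mice ended the interaction call of Hes1 in 19 of 47 cases, with an adjusted p of up to 0.0720, and it did not pass without the ZT16 mice (adjusted p = 0.123).

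Several genes of the set differed between times within a diet. On the high-fat diet 7 of 9 genes passed a test for any difference over the 6 times, all but Notch2 and Jag1, against 40.1% of all genes. On the control diet 6 of 9 passed, namely Notch3, Hey1, Heyl, Hes1, Rbpj and Jag1, against 36.3%. Jag1 thus passed on the control diet (adjusted p = 0.00139) and not on the high-fat diet (adjusted p = 0.489), and its difference between diets over time is the interaction given above. Its group means spanned 0.24 on the high-fat diet and 0.46 on the control diet. Without high-fat ZT12 replicate 3 the call of Heyl on the high-fat diet was lost (adjusted p = 0.0610). On the control diet the call of Notch3 was lost without ZT12 replicate 3 or 4 (adjusted p up to 0.0809), and that of Heyl without ZT12 replicate 3 or 4 or ZT16 replicate 1 or 3 (adjusted p up to 0.0717). Without all ZT16 mice the calls of Notch1 on the high-fat diet (adjusted p = 0.0764) and of Heyl on the control diet (adjusted p = 0.13) were lost. With the mean of probe sets the Heyl call on the control diet was lost (adjusted p = 0.0989), and with cyclic loess the Megf10 call on the high-fat diet (adjusted p = 0.0518). In all of these, time of day and collection day cannot be told apart.

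Rbpj had the widest daily range on the high-fat diet. Its group mean was highest at ZT0 on both diets, with 9.05 ± 0.05 on the high-fat diet and 8.84 ± 0.11 on the control diet (SD, n = 4 each). At ZT4 it was 7.91, 8.25, 8.58 and 7.76 in high-fat mice, against 8.26, 8.57, 7.85 and 8.06 in control mice. At ZT8 it was 8.14, 8.69, 8.69 and 8.06 in high-fat mice, against 8.37, 7.77, 8.35 and 8.21 in control mice. Every mouse at these 2 times lay below every mouse of its diet at ZT0. The group means spanned 0.93 on the high-fat diet, a ratio of 1.90 between highest and lowest, and 0.67 on the control diet. The interaction of diet and time did not pass for Rbpj (adjusted p = 0.787).

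A 24 h cosine curve, with an amplitude measured from its mean to its peak, passed on the high-fat diet for Notch1 and Megf10, 2 of 9 genes against 16.9% of all genes. Notch1 had an amplitude of 0.17 ± 0.04 with a peak at 7.41 ± 0.906 h (adjusted p = 0.00719). Megf10 had an amplitude of 0.13 ± 0.03 with a peak at 10.0 ± 1.07 h (adjusted p = 0.0203). On the control diet 0 of 9 passed, against 10.5%, with 4 of 9 at an unadjusted p under 0.05 (26.7% of all genes), and Notch1 passed there without the control ZT20 mouse that stood apart (adjusted p = 0.0451). On the control diet the fitted amplitudes were 0.12 ± 0.04 for Notch1 and 0.06 ± 0.03 for Megf10. The difference in rhythm between diets passed for 0 of 9 genes, against 2.11% of all genes, with 1 of 9 at an unadjusted p under 0.05 (Megf10, adjusted p = 0.195), against 18.9% of all genes. With collection day as a random block, neither rhythm on the high-fat diet passed (adjusted p = 0.0646 for Notch1 and 0.131 for Megf10). Megf10 did not pass with cyclic loess either (adjusted p = 0.0565). Hes1 passed on that diet under 3 alternatives, with an adjusted p of 0.0431 to 0.0492, and Notch3 without the ZT16 mice (adjusted p = 0.0451).

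Second probe sets of 5 genes gave further measurements of the same RNA. For Notch3 the second probe set was higher on the high-fat diet by 0.12 ± 0.03 on average (adjusted p = 0.0149) and by 0.36 ± 0.08 at ZT0 (adjusted p = 0.00864), and it passed the interaction too (adjusted p = 0.0268), as well as the rhythm on the high-fat diet (adjusted p = 0.0244) and on the control diet (adjusted p = 0.00254). For Heyl the others gave 0.31 ± 0.07 (adjusted p = 0.00419) and 0.16 ± 0.06 (adjusted p = 0.0554), and the last passed the rhythm on the high-fat diet (adjusted p = 0.0446). The Notch3 and Heyl probe sets therefore had the same sign on average.

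For Jag1 the probe sets disagreed. The dimmer one was higher on average by 0.29 ± 0.09 (adjusted p = 0.0430) and did not pass at ZT0 (0.19 ± 0.23, adjusted p = 0.718) or in the interaction (adjusted p = 0.812), and at ZT16 its difference was 0.03 ± 0.25. The dimmer Notch1 probe set was lower on high fat at ZT16 (log2 difference -0.32 ± 0.09, adjusted p = 0.0172), passed the interaction (adjusted p = 0.0116), and did not pass the rhythm on the high-fat diet (adjusted p = 0.0630). That of Rbpj differed by -0.04 ± 0.05 on average, opposite in sign to the brighter one, and neither passed. It also did not pass over times on the control diet (adjusted p = 0.242).

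Over times on the control diet neither of the other Heyl probe sets passed (adjusted p = 0.113 and 0.138), and on the high-fat diet 1 of them did not (adjusted p = 0.0543). At single times some uncalled differences had opposite signs in the probe sets of a gene, for Notch1 at ZT0, ZT4 and ZT12, for Heyl at ZT8, for Rbpj at ZT12 and ZT16, and for Jag1 at ZT4 and ZT16.

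**Figure D3:**
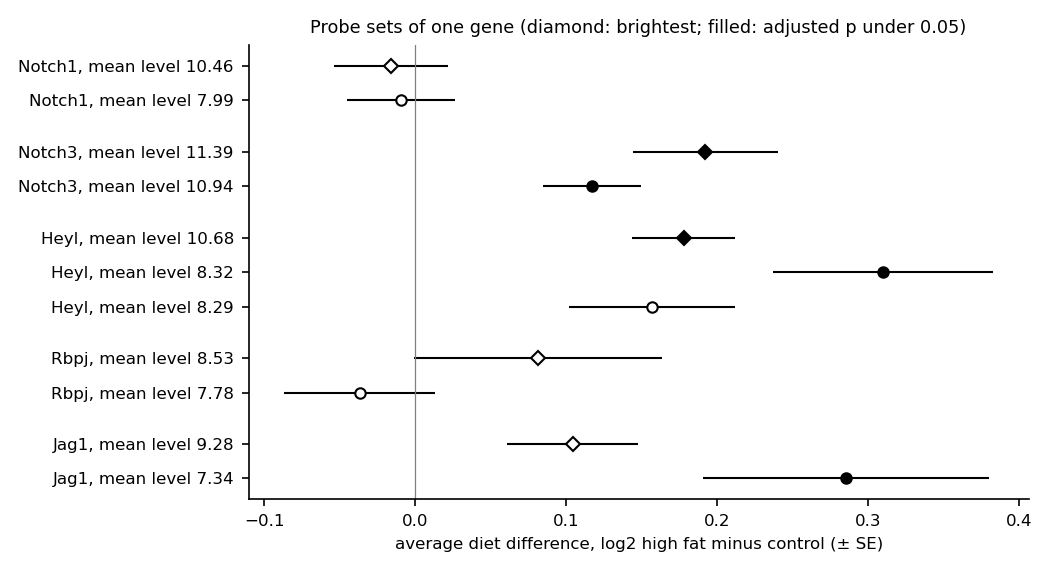
Average difference between diets (log2 high fat minus control ± SE) for every probe set of the 5 genes with more than 1, labelled with the probe set's mean log2 level. Diamonds are the brightest probe sets and filled symbols have an adjusted p under 0.05; the probe sets of Notch3, Heyl and Jag1 lie right of 0.

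Other genes of the pathway were described from lists by role, which were chosen with earlier results of these data known. The shares of these lists that passed are therefore a description only. Of 68 listed genes 51 were tested, and 10 (19.6%) passed for the average difference, 6 as higher and 4 as lower on the high-fat diet, against 11.5% of all genes. Their median difference was 0.01, against -0.01 over all genes. Of the ligands and the remaining receptor 0 of 2 tested genes passed, with the ligand gene Dll1 at -0.08 ± 0.07 and Dlk1, a Delta-like inhibitor, at 0.07 ± 0.12, both with unadjusted p above 0.05. Notch4, Dll3 and Dll4 lay under the filter, with means of 5.51, 5.24 and 5.40.

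Among 9 cleavage genes 1 passed, Psen2, a catalytic subunit of gamma-secretase, which was lower on high fat (log2 difference -0.25 ± 0.08, adjusted p = 0.0274). Adam17, a surface protease, differed by 0.12 ± 0.05 (adjusted p = 0.111), Furin, the convertase that processes the receptor precursor, by -0.07 ± 0.04 (adjusted p = 0.175) and the secretase subunit gene Psenen by -0.04 ± 0.04 (adjusted p = 0.593). Of 5 genes for enzymes that add sugars to Notch receptors 0 passed, and 0 had an unadjusted p under 0.05, a level that 26.7% of all genes reached for the average. Poglut1 differed by -0.09 ± 0.06, Rfng by -0.03 ± 0.07, Mfng by -0.02 ± 0.03 and Eogt by 0.01 ± 0.03. Of 10 nuclear partners 0 passed and 1 had an unadjusted p under 0.05, Kat2b, an acetyltransferase, at 0.15 ± 0.05 (adjusted p = 0.0536). Snw1, a cofactor, was at -0.15 ± 0.08, and the corepressor genes Ctbp2 and Ctbp1 were at -0.05 ± 0.04 and 0.06 ± 0.06.

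Of 13 genes of receptor trafficking and turnover 3 passed. Numbl, a Numb-like adaptor that opposes Notch, was higher on the high-fat diet by 0.26 ± 0.09 (adjusted p = 0.0489), and Dtx4, an E3 ubiquitin ligase of the Deltex family, by 0.11 ± 0.02 (adjusted p = 0.00283). Its relative Dtx2 was lower (log2 difference -0.13 ± 0.04, adjusted p = 0.0460). Mib1, a ubiquitin ligase that acts on the ligands, was at -0.13 ± 0.05 (adjusted p = 0.0768). Of 3 further Hes-related genes 2 passed. Hes6, which promotes myogenic differentiation by antagonising Hes1, was lower (log2 difference -0.35 ± 0.07, adjusted p = 0.00146), and Bhlhe40, a repressor of the circadian clock, was higher by 0.20 ± 0.04 (adjusted p = 0.00148). Its relative Bhlhe41 was at -0.01 ± 0.05.

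Of 9 genes described as outputs of Notch in satellite cells 4 passed. The calcitonin receptor gene Calcr was higher by 0.27 ± 0.07 (adjusted p = 0.00868), the collagen gene Col6a2 by 0.28 ± 0.07 (adjusted p = 0.00732) and the stem cell factor Pax7 by 0.11 ± 0.03 (adjusted p = 0.0169). Myod1, the myogenic determination factor that Notch signalling represses, was lower (log2 difference -0.28 ± 0.04, adjusted p = 8.2e-06). The remaining 5, Col5a1, Col5a2, Col5a3, Col6a1 and Snai2, had differences between 0.02 and 0.17 and did not pass.

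**Figure D4:**
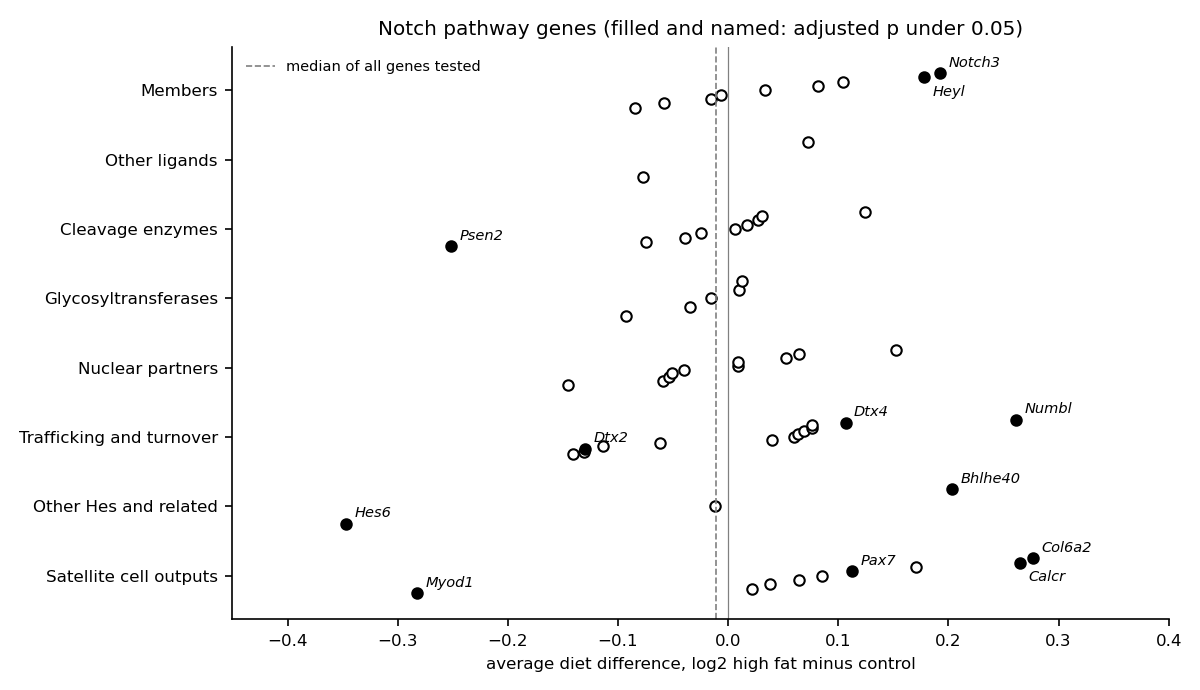
Average difference between diets (log2 high fat minus control) of the 9 genes and of 51 further tested genes of the pathway, 1 point per gene in rows by role. Filled and named points have an adjusted p under 0.05, 8 of them right and 4 left of 0; the dashed line is the median of all genes tested, -0.01.

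Markers of cell types were compared between diets for the same average, which 11.5% of all genes passed, 4.7% as higher and 6.8% as lower. Of 11 satellite cell markers 3 passed as higher (Pax7, Vcam1 and Calcr), and Pax7 and Calcr are also among the outputs above. All 11 had positive average differences, and at single times 3 (ZT4) to 8 (ZT12) of the 11 were positive. Of 6 markers of pericytes and smooth muscle, cells that also express Notch3 and Heyl, 1 passed. This was Pdgfrb, lower on the high-fat diet (log2 difference -0.29 ± 0.08, adjusted p = 0.0204). All 6 had negative average differences, but at ZT12 all 6 had positive differences, and at ZT20 all 6 had negative ones. Of the 6, 2 passed as lower at ZT20 (median difference -0.59), against 0.819% of all genes, and none passed at another single time. For Notch3 and Heyl the means were higher on high fat at both ZT12 and ZT20, but neither gene passed at either time. Of 5 fibro-adipogenic markers 2 were higher (Col3a1 and Dpt), of 4 Schwann cell markers 2 were higher (Mbp and Sox10), of 8 myofibre markers 1 was higher (Pvalb), of 2 immune markers 1 was lower (Cd68), and of 5 endothelial markers none passed and none had an unadjusted p under 0.05. The part of these cells in the differences of the 9 genes was not tested.

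Covariation between mice was described on each mouse's deviation from its group mean, over 47 mice, for 36 pairs among the 9 genes and 63 pairs of a gene with the mean of a marker list. Of these 99 relations 1 passed adjustment, that of Notch3 with the satellite cell markers (Pearson r = 0.53, permutation p = 0.00043, adjusted p = 0.0426). Its Spearman rho was 0.53 (permutation p = 0.00071, adjusted p = 0.0703), and r was 0.41 without the 2 mice farthest from the median of Notch3. For Notch3 with the markers of pericytes and smooth muscle r was -0.07 (permutation p = 0.626, adjusted p = 0.830). The highest correlation between genes of the set was that of Hey1 and Heyl (r = 0.52, permutation p = 0.00155, adjusted p = 0.0767; rho = 0.51, permutation p = 0.00177, adjusted p = 0.0876), with r = 0.44 without the 2 mice farthest from the median of Hey1. Notch3 and Heyl, which were both higher on the high-fat diet, had r = -0.06 between mice (permutation p = 0.714, adjusted p = 0.893).

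Across the 12 group means, which share collection days between diets, the set did not follow a common course. Notch3 and Heyl had r = 0.57, Notch1 and Rbpj had r = -0.65, and Hes1 and Jag1 had r = 0.05, as a description with no test. The genes outside the set most like each member over these means were Tgfb2 (r = 0.94) and B4galt7 (0.93) for Notch1, Garem1 (0.88) and 4933416E03Rik (0.87) for Notch3, Megf9 (0.94) and Cmpk2 (0.89) for Heyl, and Phldb2 (0.93) and Extl2 (0.91) for Megf10. They were E2f2 (0.92) and Rufy1 (0.85) for Hey1, Nisch (0.92) and Slc49a4 (0.88) for Hes1, Ube2c (0.88) and Ugp2 (0.87) for Rbpj, and Tmem218 (0.81) and Snx6 (0.80) for Jag1. These were picked as the highest among all other tested genes over only 12 means, so high values follow in part from the choice. None of these likenesses was tested.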

How the data were processed

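RNA of satellite cells from 47 mice was measured on Affymetrix arrays, 1 per mouse; per the labels' protocols, 25 ng of total RNA was amplified over 17 cycles. The deposited values are log2 expression per probe set, made by the authors with RMA (robust multi-array averaging), per the submitters' processing notes; its version is not given in the sources used here. Quantile methods of this kind make differences relative to the bulk of genes. Medians per array were 5.86 to 5.94, no arrays were identical, and the number of arrays limits the precision.

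Probe sets with 1 gene symbol in the platform annotation were used, the brightest per gene, and genes with a mean under the 40th percentile (5.80) were left out. R 4.3.3 with limma 3.58.1 (lmFit, eBayes with an intensity trend) fitted 12 group means over all mice for diet and time, and a 24 h cosine and sine within each diet for rhythms. Tests were two-sided, and every adjusted p of a gene is limma's with Benjamini-Hochberg adjustment at a threshold of 0.05. The adjustment ran over 10258 genes, or over 17097 with no filter and 6839 with the filter at the 60th percentile. Values after ± are limma's SE unless SD is named. The labels call the mice biological replicates. Correlations between mice used 100000 permutations within groups, adjusted over 99 relations. The tests were checked on simulated data. Alternatives changed the normalization, filter, trend, array weights, probe sets, replicate block and mice. The genes, lists and tests were chosen with earlier results of these data known. Named beside the 9 genes are other probe sets that disagree with the main one in direction or call, up to 4 genes per pathway list with the smallest p and every one that passed, and the 2 genes most like each member that passed a test; levels alone are given for genes under the filter.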

Additional observations from a re-analysis of the deposited data

Results flagged for a closer look

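The difference between diets changed with time for Hes1 (interaction adjusted p = 0.0402) and for Jag1 (adjusted p = 0.0200). In 5 of 99 sets of 4 mice (the 9 genes in each group of 4), a single mouse lay far from the others by Dixon's criterion, which chance gives in about 1 in 20 groups. For Heyl, high-fat ZT0 replicate 4 was at 10.85, against 10.57 to 10.61 in the other high-fat mice. For Hes1, high-fat ZT20 replicate 2 was at 8.15, against 7.53 to 7.61. For Notch1, control ZT8 replicate 2 was at 10.20, against 10.63 to 10.71, and control ZT12 replicate 4 was at 10.50, against 10.59 to 10.61. For Jag1, control ZT4 replicate 2 was at 9.50, against 9.36 to 9.37.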

How the results depend on the processing

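The average differences of Notch3 and Heyl passed under each of the 8 alternatives fitted to them (adjusted p at most 0.0298 and 0.00871). They also passed without each of the 47 mice in turn (at most 0.0172 and 0.00144). In these fits without single mice the log2 differences were 0.17 to 0.22 and 0.17 to 0.19. The other 2-gene counts were less stable, and the cause was not tested. At ZT0 0 genes passed with no filter, with no intensity trend and with a replicate block, and 1 with array weights, with the mean of probe sets and without the ZT16 mice. The interaction passed for 1 gene with no filter and with a replicate block, and for 0 without the ZT16 mice. With the mean of probe sets it passed for Hes1 and Notch3 and not for Jag1. The average passed for 3 genes, Jag1 added, without the ZT16 mice and with the mean of probe sets. At ZT8 1 gene passed with array weights. At ZT16 1 passed with cyclic loess and 2 with array weights and with the mean of probe sets. The rhythm on the high-fat diet passed for 1 gene with cyclic loess and for 0 with collection day as a random block, and for 3 with the filter at the 60th percentile, array weights and the mean of probe sets (Hes1 added) and without the ZT16 mice (Notch3 added). Over times on the control diet Notch1 was added with array weights and Notch2 with cyclic loess. The rhythm on the control diet passed for 1 with the filter at the 60th percentile, with array weights and with the mean of probe sets. Leaving out single mice gave 0 to 2 genes at ZT0, 0 to 1 at ZT16, 0 to 1 at ZT20, 0 to 3 for the interaction, 4 to 7 over times on the control diet, 6 to 7 over times on the high-fat diet, 0 to 1 for the rhythm on the control diet and 2 to 4 on the high-fat diet, and 2 to 2 for the average. Among 117 results of single genes, only the average and single-time differences between diets have a sign to compare. None of these changed sign where it passed in either fit, and 50 sign changes were in differences that passed in neither. Replicate numbers did not pair the mice (1 of 23 pairs with a correlation over 0.1, from -0.19 to 0.11), so the replicate block shows a shared number only. Over all genes, without the ZT16 mice 584 genes passed for the average instead of 1180 and 271 for the interaction instead of 1276. Array weights gave 2199 for the interaction and 2678 at ZT16 instead of 1360, 775 at ZT8 instead of 183 and 11 at ZT4 instead of 32. With collection day as a random block 289 rhythms passed on the control diet instead of 1081 and 580 on the high-fat diet instead of 1731. The rhythm difference passed for 216 genes, and for 431 with array weights, 105 with a replicate block, 15 without the ZT16 mice and 22 where a 24 h curve replaced the time levels. Without the ZT16 mice 2472 genes passed over times on the high-fat diet instead of 4115, 1062 for the rhythm on that diet and 22 at ZT12 instead of 88. At ZT12 57 passed with no filter and 56 with a replicate block, at ZT8 314 with no filter, and at ZT4 20 with the filter at the 60th percentile. Leaving out single mice gave 122 to 426 genes at ZT0, 10 to 39 at ZT4, 58 to 215 at ZT8, 16 to 107 at ZT12, 598 to 1406 at ZT16, 41 to 100 at ZT20, 837 to 1392 for the interaction and 59 to 247 for the rhythm difference. Cyclic loess moved the median average difference by 0.01. Single groups hold 4 mice, and differences within their SD are not resolved.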
